A study of Mus musculus with 95 samples.

Results

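The genes described here mark the two-cell-like state of mouse embryonic stem (ES) cells. They were named as a list of 6 genes (Zscan4c, Zscan4d, Zscan4f, Tcstv1, Tcstv3 and Zfp352) and looked up by symbol among the 23377 genes of the deposited RNA-seq count table. The table paired 4 of the 6 symbols with counts, and all 4 were among the 15464 genes tested; Tcstv1 and Tcstv3 were not analysed here. The series compared E14 ES cells with lines that lack different PCGF proteins, the subunits that distinguish the forms of Polycomb repressive complex 1. It held 14 RNA-seq libraries and 81 ChIP-seq samples, a wild-type input among them. By their labels, some ChIP-seq samples came from other lines: Ezh1/2-/-, Ring1a-/-_Ring1bfl and Ring1a/b-/-. Others were labelled shMGA, shMGAdHLH, shE2F6, shE2F6-MGAdHLH, shUsf1, shUsf2 and shCtr. The comparisons ask how the genes respond to the loss of each PCGF protein.

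RNA was sequenced from 7 groups with 2 libraries each. Beside unedited E14 cells, called wild-type here, these were Pcgf1-/- and Pcgf6-/-, which lack 1 protein, then Pcgf2/4-/- and Pcgf3/5-/-, which lack 2, and Pcgf1/2/4-/- and libraries labelled Pcgf3/5/6-/-, which lack 3 by their labels. In these names 4 stands for PCGF4, the product of Bmi1. Every line, wild-type included, was kept on gelatin with serum and leukaemia inhibitory factor, and the medium also held a GSK3β inhibitor and a MEK1/2 inhibitor. The knockouts are Cas9-edited clones, and the column names of the count table give 1 clone per line, so an effect of the deletion and a property of the clone cannot be told apart. Lines lacking several genes were made by editing single-knockout clones again.

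Cultures of ES cells contain a small, changing set of cells that transiently switch on genes of the embryo at the stage when its own genome is first transcribed. The Zscan4 genes encode SCAN-domain zinc finger proteins of that stage, which in ES cells are tied to telomere maintenance. Zfp352 encodes another zinc finger protein of the same embryonic stage, and the homeobox factor DUX is known to switch on much of the programme. Because these are bulk libraries, a change in the number of such cells and a change in RNA per cell cannot be told apart.

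Zscan4c (ENSMUSG00000054272.4, chromosome 7, 11591071 to 11595896, plus strand), Zscan4d (ENSMUSG00000090714.1, 11746992 to 11751497, minus strand) and Zscan4f (ENSMUSG00000070828.3, 11983264 to 11988090, plus strand) are protein-coding copies in 1 cluster on mouse build NCBIM37. Zfp352 (ENSMUSG00000070902.4) lies on chromosome 4, 89885511 to 89892393, plus strand. None of the 4 overlaps another gene of the GENCODE M1 annotation. The copies share most of their sequence. Of the 50-base words in the exons, 15.5% occur once in the genome for Zscan4c, 50.5% for Zscan4d and 2.29% for Zscan4f, against 90.9% for Zfp352. How reads that match several copies were counted is not given in the sources used here, so the split between copies is uncertain, and the 3 copies are not independent measurements.

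The sequences before the genes are shown because the copies moved together. Each window below has 250 bases of NCBIM37, 5′ to 3′ on the gene's strand, with the Zscan4 windows placed at the same distance before exon 2. The Zscan4c, Zscan4f and Zfp352 windows end just before the annotated start, and the Zscan4d window ends 34 bases farther upstream of its own. Capitals mark the positions at which the 3 Zscan4 windows differ.
Zscan4c, chr7:11590821-11591070, plus strand: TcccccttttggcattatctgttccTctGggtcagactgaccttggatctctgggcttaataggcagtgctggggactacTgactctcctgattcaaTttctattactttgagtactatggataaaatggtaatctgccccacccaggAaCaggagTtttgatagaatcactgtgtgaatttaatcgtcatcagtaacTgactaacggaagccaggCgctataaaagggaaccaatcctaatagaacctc
Zscan4d, chr7:11751532-11751781, minus strand: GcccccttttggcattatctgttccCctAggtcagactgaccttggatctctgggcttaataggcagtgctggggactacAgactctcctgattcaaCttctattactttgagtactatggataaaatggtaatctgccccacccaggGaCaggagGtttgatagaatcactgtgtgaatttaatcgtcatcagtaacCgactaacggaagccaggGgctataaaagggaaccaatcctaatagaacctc
Zscan4f, chr7:11983014-11983263, plus strand: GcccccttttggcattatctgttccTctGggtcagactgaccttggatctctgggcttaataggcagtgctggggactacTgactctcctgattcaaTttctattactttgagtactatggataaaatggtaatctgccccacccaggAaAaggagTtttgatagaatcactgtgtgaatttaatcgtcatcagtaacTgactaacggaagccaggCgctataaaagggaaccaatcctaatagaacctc
Zfp352, chr4:89885261-89885510, plus strand: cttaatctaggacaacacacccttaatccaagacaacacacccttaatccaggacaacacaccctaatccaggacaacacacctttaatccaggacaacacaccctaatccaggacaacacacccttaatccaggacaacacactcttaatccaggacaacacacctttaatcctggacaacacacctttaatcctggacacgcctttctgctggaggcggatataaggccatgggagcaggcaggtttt

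The Zscan4 windows differed at 10 of 250 positions, Zscan4c and Zscan4f at only 2, and Zscan4d from each of the others at 9. Searched on both strands were 3 motifs that do not overlap one another: TGATT and AATCA joined by any 1 base, a palindrome of the kind bound by DUX, CACGTG, an E-box of the kind bound by MAX and USF proteins, and TATAAA. The last was found in each Zscan4 window at -31 to -26 from the window's end, and it occurred in 12.3% of 22380 windows of the same length before protein-coding starts. As exact words, the palindrome (0.0313% of the windows) and CACGTG (6.51%) were not found in any of the 4 windows, and none of the 3 was found before Zfp352. Near matches were not searched for. Each Zscan4 window holds TGATAGAATCA, which differs from the palindrome at 1 position. How often such near matches occur before other genes was not counted.

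Library totals ran from 2147968 to 7848161 counts. Values are CPM (counts scaled to library depth) on TMM-adjusted library sizes, and changes come from edgeR's quasi-likelihood test over all 14 libraries, called at a Benjamini-Hochberg adjusted p below 0.05. The 2 wild-type libraries differed by less than sampling noise (a chi-square test of 14899 genes gave 0.958 per degree of freedom, p = 1.00), while the other pairs lay between 1.18 and 19.5. The wild-type pair is therefore counted as 1 sample where a level is given, and as 2 in the fit. With the pair summed to 1 library in the fit, no call for the 4 genes against wild-type changed. The labels do not say that libraries of a group are separate cultures, so p-values measure the spread between these libraries. All 9 pluripotency markers, among them Pou5f1 and Nanog, had counts in every group, and their summed level lay between 1914 and 4065 CPM. Of the targeted genes, Pcgf1 transcript was lowered in Pcgf1-/- (log2 fold change -3.90) and Pcgf1/2/4-/- (-6.39). Pcgf5 was lowered in Pcgf3/5-/- (-1.22), but by a like amount in Pcgf1-/- (-1.28) and Pcgf2/4-/- (-1.17), where it was not targeted, and it was not called in the libraries labelled Pcgf3/5/6-/- (0.33, adjusted p = 0.206), so it checks neither label. The test did not call Pcgf3 in Pcgf3/5-/- (-0.40), nor Pcgf2 (0.10) and Bmi1 (-0.18) in Pcgf2/4-/-; an edited gene can still be transcribed. Pcgf6 had 0 counts in both Pcgf6-/- libraries, but in the libraries labelled Pcgf3/5/6-/- its mean was 39.5 CPM against 35.3 in wild-type, a difference that did not pass the test (adjusted p = 0.338), so the transcript does not check that label.

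The genes were raised in 2 lines, Pcgf6-/- and the libraries labelled Pcgf3/5/6-/-, and, but for Zfp352 in Pcgf3/5-/-, lowered in Pcgf1-/-, Pcgf2/4-/-, Pcgf3/5-/- and Pcgf1/2/4-/-. Against wild-type, 4 of 4 were raised in Pcgf6-/-, where 27.8% of all tested genes were raised, and 4 of 4 in the libraries labelled Pcgf3/5/6-/-, where the share was 28% of all. Lowered genes came to 4 of 4 in Pcgf1-/- (18.4% of all genes), 4 of 4 in Pcgf2/4-/- (13.5%), 3 of 4 in Pcgf3/5-/- (10.4%) and 4 of 4 in Pcgf1/2/4-/- (22.6%). The median log2 change of the 4 was 1.73 in Pcgf6-/-, 1.35 in the libraries labelled Pcgf3/5/6-/-, -3.44 in Pcgf1-/-, -1.02 in Pcgf2/4-/-, -2.85 in Pcgf3/5-/- and -2.92 in Pcgf1/2/4-/-. The median over all tested genes lay between -0.11 and 0.0484 in the same comparisons. All 6 comparisons share the wild-type libraries.

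**Figure D1:**
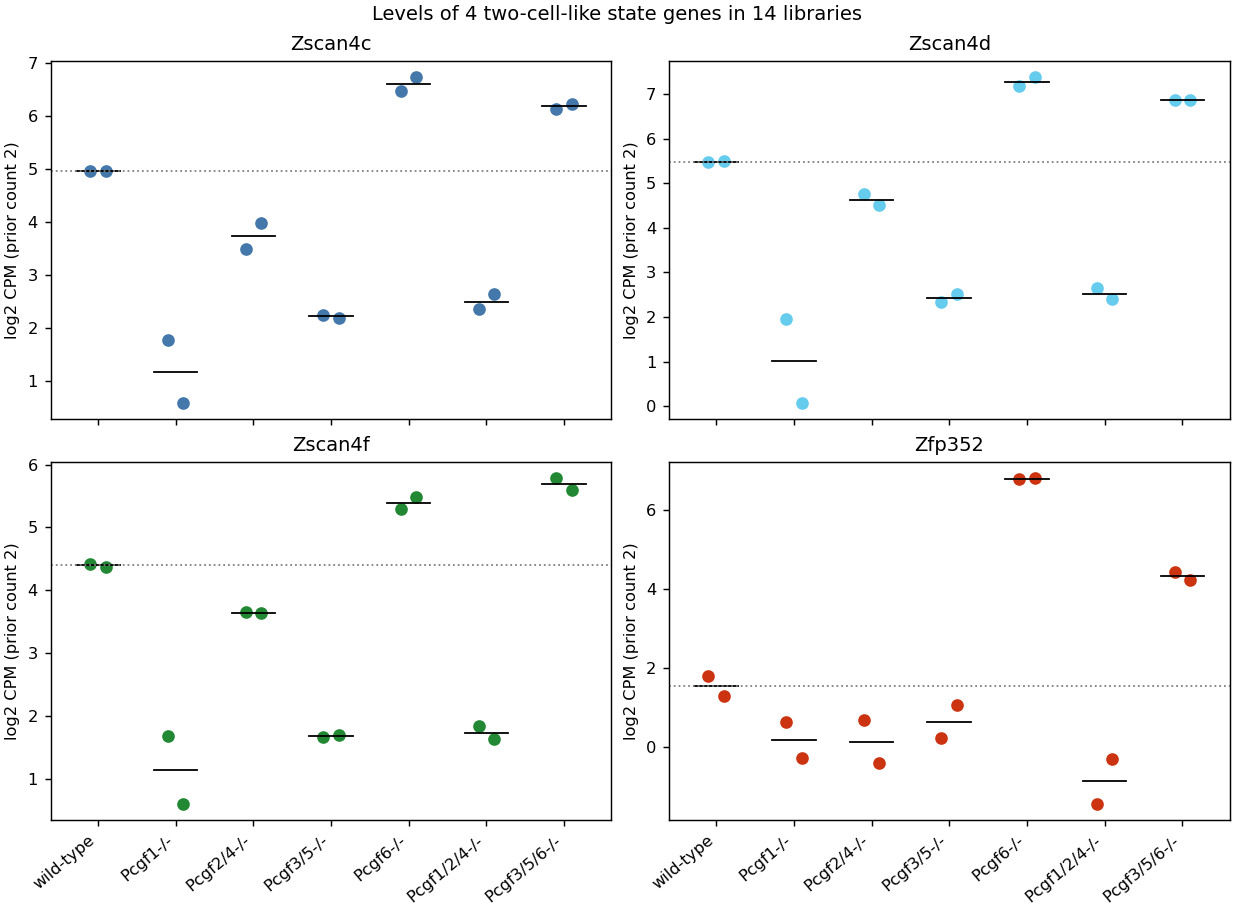
Level of Zscan4c, Zscan4d, Zscan4f and Zfp352 in each of the 14 libraries, as log2 CPM with a prior count of 2 (points), with the mean of each line (bar) and of wild-type (dotted line). For all 4 genes both Pcgf6-/- and both libraries labelled Pcgf3/5/6-/- lie above both wild-type libraries, and the libraries of the other 4 lines lie below them.

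Among the 4 genes, Zfp352 showed the largest rise. The wild-type libraries had 22 and 15 counts, or 3.14 and 2.11 CPM. The Pcgf6-/- libraries had 891 and 732 counts, or 111 and 112 CPM, with a mean of 111 ± 0.880 CPM (SD, n = 2). The groups were far apart and the pair of knockout libraries agreed closely, which gave a 42.2-fold increase (log2 fold change 5.40, SE 0.24, adjusted p = 9.4e-10), or 4.77 on the log2 scale with loess offsets. In the libraries labelled Pcgf3/5/6-/- Zfp352 had 21.4 and 18.6 CPM (20.0 ± 2.04, SD, n = 2), a 7.60-fold increase (log2 fold change 2.93, SE 0.29, adjusted p = 1.95e-06), or 2.28 on the log2 scale with loess offsets. That level lay below Pcgf6-/- by 2.47 on the log2 scale (log2 fold change -2.47, SE 0.20, adjusted p = 1.06e-06), with no overlap of libraries.

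In the lines where it was low, Zfp352 rested on few counts. Pcgf1-/- libraries had 11 and 2 counts (1.201 and 0.457 CPM), Pcgf2/4-/- libraries 3 and 3 (1.26 and 0.383 CPM), and Pcgf3/5-/- libraries 6 and 9 (0.801 and 1.72 CPM). All of these lay below the wild-type pair, and their ranges overlapped one another. The decrease passed the test in Pcgf1-/- (log2 fold change -1.44, SE 0.47, adjusted p = 0.0292) and Pcgf2/4-/- (-2.10, SE 0.57, adjusted p = 0.0167) but not in Pcgf3/5-/- (-1.13, SE 0.45, adjusted p = 0.0940). The call in Pcgf1-/- was lost with only the 2 groups fitted (adjusted p = 0.0518), without wild-type replicate 1 (0.194) and without Pcgf1-/- replicate 2 (0.164), and that in Pcgf2/4-/- with only the 2 groups fitted (0.0818), without wild-type replicate 1 (0.110) and without Pcgf2/4-/- replicate 2 (0.317). Pcgf1/2/4-/- libraries had 0 and 1 counts, against 37 in wild-type, a ratio of 0.0934 (exact 95% counting interval 0.00230 to 0.553). The fitted change of that line also passed (adjusted p = 0.0167), but not with DESeq2 (0.0577), without wild-type replicate 1 (0.0609), or without either Pcgf1/2/4-/- library (0.138 and 0.0598).

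Zscan4c had 30.9 and 31.1 CPM in wild-type, from 217 and 221 counts. It reached 88.5 and 106 CPM in Pcgf6-/- (97.1 ± 12.2, SD, n = 2) and 69.7 and 74.9 CPM in the libraries labelled Pcgf3/5/6-/- (72.3 ± 3.67, SD, n = 2). Both pairs lay above wild-type without overlap. The increases were 3.13-fold in Pcgf6-/- (log2 fold change 1.65, SE 0.16, adjusted p = 1.30e-06) and 2.33-fold in the libraries labelled Pcgf3/5/6-/- (1.22, SE 0.17, adjusted p = 3.44e-05). At the other end stood Pcgf1-/- with 3.06 and 1.14 CPM, then Pcgf3/5-/- with 4.41 and 4.22 CPM, Pcgf1/2/4-/- with 4.80 and 5.87 CPM and Pcgf2/4-/- with 10.9 and 15.5 CPM. The library ranges of neighbours in this order did not overlap. The order of the lowest lines rests on few counts, 28 and 5 in Pcgf1-/-, 33 and 22 in Pcgf3/5-/- and 9 and 13 in Pcgf1/2/4-/-. Zscan4c was lowered 12.8-fold in Pcgf1-/- (adjusted p = 2.27e-07), 7.13-fold in Pcgf3/5-/- (1.51e-06), 5.75-fold in Pcgf1/2/4-/- (2.25e-05) and 2.21-fold in Pcgf2/4-/- (0.00100). The size in Pcgf1-/- turned on 1 library: the log2 fold change was -3.68, and -4.73 without Pcgf1-/- replicate 1.

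Zscan4d, the copy with the largest share of unique sequence among the 3, had 44.1 and 44.6 CPM in wild-type. Pcgf6-/- libraries had 145 and 165 CPM (155 ± 14.6, SD, n = 2) and the libraries labelled Pcgf3/5/6-/- had 116 and 116 CPM (116 ± 0.218, SD, n = 2). Again the raised libraries stood apart from wild-type, by 3.49-fold (log2 fold change 1.81, SE 0.16, adjusted p = 5.54e-07) and 2.62-fold (1.39, SE 0.17, adjusted p = 1.01e-05). The level was 26.8 and 22.3 CPM in Pcgf2/4-/-, 5.87 and 4.96 CPM in Pcgf1/2/4-/-, 4.68 and 5.37 CPM in Pcgf3/5-/- and 3.50 and 0.685 CPM in Pcgf1-/-. Pcgf1/2/4-/- and Pcgf3/5-/- overlapped. Zscan4d was lowered 17.3-fold in Pcgf1-/-, 8.88-fold in Pcgf3/5-/-, 8.20-fold in Pcgf1/2/4-/- and 1.86-fold in Pcgf2/4-/-, with adjusted p-values of 1.29e-07, 7.94e-07, 7.53e-06 and 0.00429. In Pcgf1-/- the log2 fold change was -4.12, and -5.97 without Pcgf1-/- replicate 1.

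Zscan4f had 21.1 and 20.4 CPM in wild-type. It was the only 1 of the 4 genes whose highest mean was in the libraries labelled Pcgf3/5/6-/-, with 54.6 and 47.9 CPM (51.2 ± 4.71, SD, n = 2) against 39.0 and 44.4 CPM in Pcgf6-/- (41.7 ± 3.78, SD, n = 2). The increases were 2.47-fold (log2 fold change 1.31, SE 0.17, adjusted p = 2.40e-05) and 2.01-fold (1.01, SE 0.17, adjusted p = 1.70e-04). Levels were 12.1 and 12.0 CPM in Pcgf2/4-/-, 3.20 and 2.71 CPM in Pcgf1/2/4-/-, 2.81 and 2.87 CPM in Pcgf3/5-/- and 2.84 and 1.14 CPM in Pcgf1-/-, with the last 3 lines overlapping in neighbouring pairs. Zscan4f was lowered 9.14-fold in Pcgf1-/-, 7.26-fold in Pcgf3/5-/-, 7.02-fold in Pcgf1/2/4-/- and 1.72-fold in Pcgf2/4-/-. The adjusted p-values were 7.55e-07, 2.03e-06, 2.31e-05 and 0.0114, and the last call was lost when only the 2 groups were fitted (0.0981) and without wild-type replicate 1 (0.0713) or 2 (0.0541). In Pcgf1-/- the log2 fold change was -3.19, and -4.15 without Pcgf1-/- replicate 1.

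**Figure D2:**
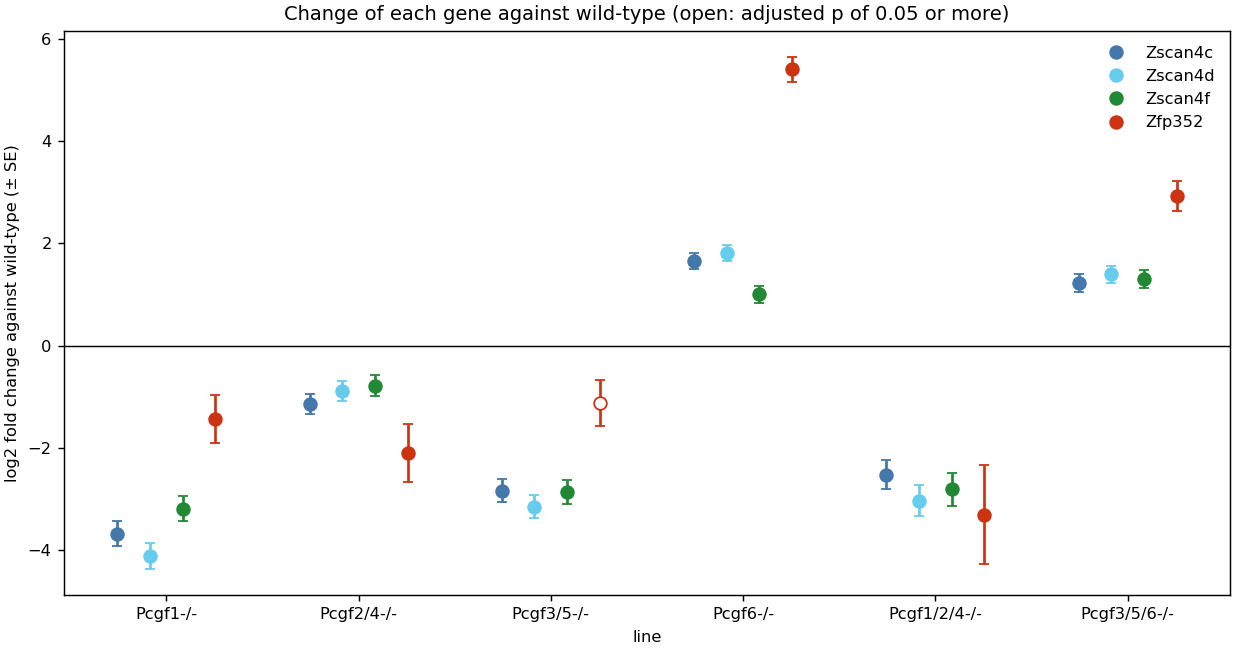
Log2 fold change against wild-type with its standard error for the 4 genes in the 6 knockout lines, 2 libraries per line; filled points passed an adjusted p of 0.05. The 1 open point is Zfp352 in Pcgf3/5-/-, at -1.13, and Zfp352 in Pcgf6-/- stands highest, at 5.40.

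Each line labelled as lacking 3 proteins was also set against the lines that lack fewer of them. All 4 genes were higher in the libraries labelled Pcgf3/5/6-/- than in Pcgf3/5-/-, where 27.1% of all genes were raised, and 3 of the 4 log2 fold changes lay between 4.05 and 4.17. Zscan4d had the largest, 4.54 (SE 0.22, adjusted p = 2.43e-09), or 23.2-fold. Against Pcgf6-/-, 3 of 4 were lower, with 27% of all genes lowered. Zscan4c (log2 fold change -0.42, SE 0.16, adjusted p = 0.0405) and Zscan4d (-0.42, SE 0.16, adjusted p = 0.0422) passed narrowly, and both calls were lost with RLE size factors (adjusted p = 0.0602 and 0.0738), without Pcgf6-/- replicate 2 (0.286 and 0.253) and without replicate 1 (0.199 and 0.159) or 2 (0.144 and 0.197) of the labelled triple knockout. The Zscan4d call was also lost without Pcgf6-/- replicate 1 (0.0692) and with loess offsets (0.105), and the Zscan4c call with DESeq2 (0.0660). With the replicate block the Zscan4c and Zscan4d calls were lost too. Zscan4f did not pass in the other direction (0.30, SE 0.16, adjusted p = 0.149, with 19% of all genes raised), although it did with loess offsets (0.0463) and with only the 2 groups (0.00201).

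In Pcgf1/2/4-/-, 3 of 4 genes were lower than in Pcgf2/4-/-, where 18.4% of all genes were lowered. The log2 fold changes were -1.38 for Zscan4c (SE 0.33, adjusted p = 0.00587), -2.14 for Zscan4d (SE 0.34, adjusted p = 3.07e-04) and -2.03 for Zscan4f (SE 0.36, adjusted p = 7.26e-04). The Zscan4c call was lost without Pcgf2/4-/- replicate 2 (0.101) and without Pcgf1/2/4-/- replicate 1 (0.0781) or 2 (0.0546). Against Pcgf1-/-, 1 of 4 was called, Zscan4c, which was higher in the triple knockout (log2 fold change 1.16, SE 0.42, adjusted p = 0.0413) with 19.6% of all genes raised. Its value was 2.21 without Pcgf1-/- replicate 1 (adjusted p = 0.00938) and 0.71 without replicate 2 (0.159), and the call was also lost with no filter on low counts (0.0553) and without either Pcgf1/2/4-/- library (0.127 and 0.297). Zscan4d (1.08, SE 0.47, adjusted p = 0.0801) and Zscan4f (0.38, SE 0.46, adjusted p = 0.590) did not pass. Zscan4d did pass with DESeq2 (1.10, adjusted p = 0.0247), with only the 2 groups fitted (1.12, 0.0293) and without Pcgf1-/- replicate 1 (2.93, 0.00158), and was 0.52 without Pcgf1-/- replicate 2. Zfp352 had too few counts in these lines to show a difference: the ratio to Pcgf1-/- was 0.255 (exact 95% counting interval 0.00599 to 1.69) and that to Pcgf2/4-/- was 0.416 (0.00905 to 3.43).

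The effect of losing the same proteins in 2 backgrounds was then compared by an interaction term chosen after the data were seen. Pcgf3/5 loss gave a more positive change beside Pcgf6 loss, by the label, than in wild-type for 3 of 4 genes (14.6% of all genes were positive and 20.2% negative), the Zscan4 copies. Pcgf2/4 loss gave a more positive change in Pcgf1-/- than in wild-type for 2 of 4 (14.1% positive, 16.8% negative), Zscan4c and Zscan4d.

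Replicate spread differed between lines. The higher library exceeded the lower by at most 1.19-fold for any of the 4 genes in Pcgf6-/- and 1.16-fold in the libraries labelled Pcgf3/5/6-/-. In Pcgf1-/- the libraries differed more for the Zscan4 copies, 2.68-fold for Zscan4c, 5.10-fold for Zscan4d and 2.49-fold for Zscan4f, always with replicate 2 lower. These ratios are imprecise, as replicate 2 had only 5, 3 and 5 counts, against 28, 32 and 26 in replicate 1. In that line 98.2%, 99.9% and 97.3% of all tested genes had a smaller difference between the libraries. Pcgf2/4-/- libraries, which differ most in depth, differed 1.42-fold for Zscan4c, 1.199-fold for Zscan4d and 1.01-fold for Zscan4f. Zfp352 differed 3.28-fold in Pcgf2/4-/- from 3 counts in each library, 2.63-fold in Pcgf1-/- and 2.15-fold in Pcgf3/5-/-.

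The proportions among the genes were compared within each library, which does not depend on scaling. In wild-type the 3 Zscan4 copies took 32.2%, 45.8% and 21.96% of their summed counts in replicate 1 (Zscan4c, Zscan4d and Zscan4f) and 32.4%, 46.4% and 21.2% in replicate 2. Zscan4f took 22.7% and 20.1% in the libraries labelled Pcgf3/5/6-/- but 14.3% (95% Wilson interval 12.9 to 15.9%) and 14.1% (12.6 to 15.6%) in Pcgf6-/-, below the wild-type intervals of 19.0 to 25.2% and 18.3 to 24.5%. These intervals cover counting error only. Zfp352 had 3.26 and 2.20 counts per 100 counts of the 3 copies in wild-type, 8.94 and 7.77 in the libraries labelled Pcgf3/5/6-/- and 40.7 and 35.5 in Pcgf6-/-. Its rise in Pcgf6-/- was thus not proportional to that of the copies. In Pcgf1-/- the figure was 12.8 and 15.4 and in Pcgf3/5-/- 6.74 and 13.8, from 2 to 11 Zfp352 counts per library.

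**Figure D3:**
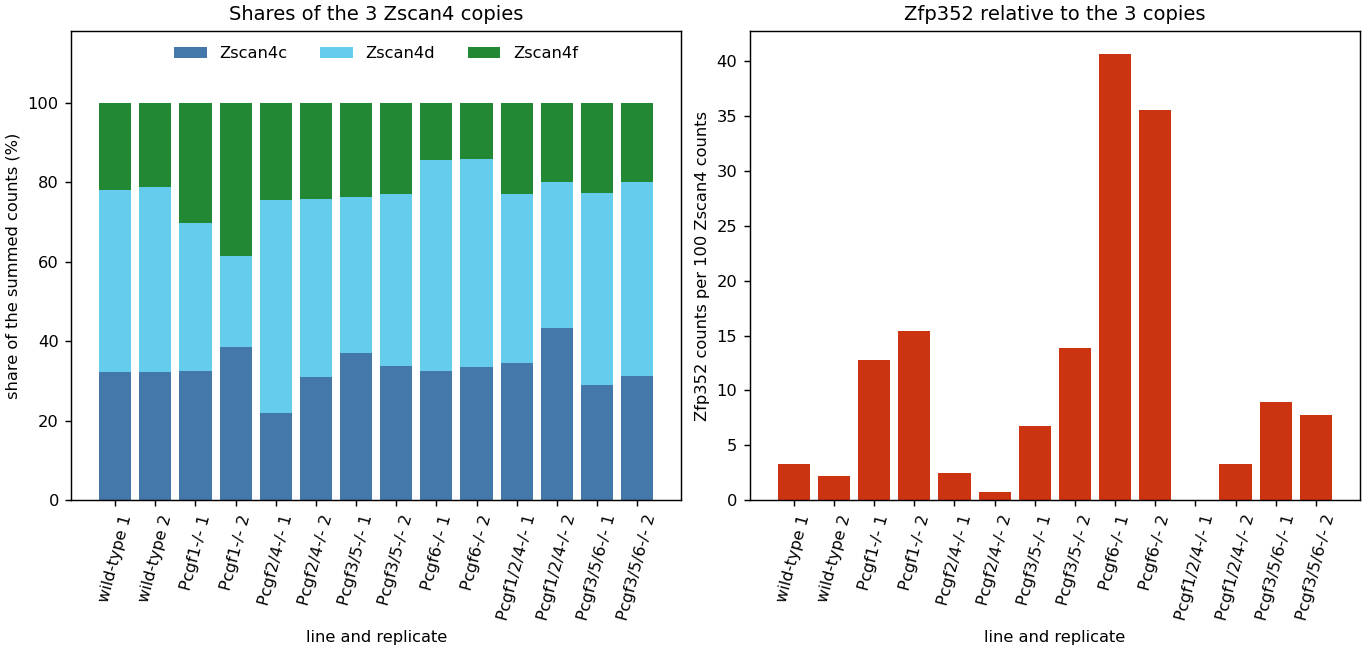
Left, shares of Zscan4c, Zscan4d and Zscan4f in their summed counts per library (%); right, Zfp352 counts per 100 of those counts. Zscan4f has its lowest shares in Pcgf6-/- (14.3% and 14.1%), where Zfp352 stands highest (40.7 and 35.5).

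Other genes of the state, a list of 49 drawn from general knowledge, were measured in the same comparisons. Of these, 40 had a row in the table and 34 were tested. The list was chosen with earlier results of these data known. It includes Zscan4a, Zscan4b and Zscan4e. Of the exon words, 90.7% for Zscan4b and 92.8% for Zscan4e also occur in other genes of the Zscan4 cluster. The list also holds several Tdpoz and Usp17l genes, whose shared sequence was not measured, so its members are not all independent measurements. Against wild-type 32 of 34 were raised and 1 lowered in Pcgf6-/-, where 27.8% of all genes were raised and 18.6% lowered. In the libraries labelled Pcgf3/5/6-/- 28 were raised and 1 lowered, where 28% of all genes were raised and 25.3% lowered. With loess offsets the second pair of counts became 20 and 3. Lowered genes came to 30 in Pcgf1-/- (1 raised, against 13.9% of all genes), 14 in Pcgf2/4-/- (0 raised, against 8.1%), 25 in Pcgf3/5-/- (0 raised, against 11.1%) and 23 in Pcgf1/2/4-/- (0 raised, against 14.4%). The shares of all genes lowered in these lines were 18.4%, 13.5%, 10.4% and 22.6%. The list's median log2 change was 2.67, 1.60, -3.27, -0.76, -2.52 and -2.66 in that order of lines. With genes at 0 counts set to their bound, the last 4 became -3.06, -0.73, -2.51 and -2.21. Between knockout lines, 30 of the 34 were raised and 1 lowered in the libraries labelled Pcgf3/5/6-/- against Pcgf3/5-/- (27.1% of all genes raised and 24.7% lowered). Against Pcgf6-/- 0 were raised and 27 lowered (19% of all genes raised and 27% lowered). In Pcgf1/2/4-/- 1 was raised and 15 lowered against Pcgf2/4-/- (11.6% of all genes raised and 18.4% lowered). Against Pcgf1-/- 4 were raised and 1 lowered (19.6% of all genes raised and 22% lowered), so the list's shares were not above those of all genes there. The summed level of the 40 genes was 496 to 533 CPM in wild-type, 2405 to 2605 in Pcgf6-/-, 1245 to 1253 in the libraries labelled Pcgf3/5/6-/- and 64.4 to 95.6 in Pcgf1-/-.

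The largest rises of the list in Pcgf6-/- were those of Ubtfl1, from 2.34 to 126 ± 5.04 CPM (log2 fold change 5.74, SE 0.30), Tdpoz2 (5.74, from 3 counts in wild-type) and B020004J07Rik, from 0.992 to 51.4 ± 1.99 CPM (SD, n = 2; 5.66, SE 0.27). Adjusted p-values were 3.16e-09, 1.14e-07 and 1.20e-09. In the libraries labelled Pcgf3/5/6-/- Arg2, which encodes a mitochondrial arginase, rose most, from 5.02 to 74.7 ± 5.43 CPM (3.89, SE 0.17, adjusted p = 9.15e-10). Tmem92 was lowered to 1.77 ± 0.333 CPM from 35.2 in Pcgf3/5-/- (-4.27, SE 0.24, adjusted p = 6.52e-08) and to 8.63 ± 3.32 CPM in Pcgf2/4-/- (-1.87, SE 0.19, adjusted p = 2.08e-05). Tdpoz4 had 0 counts in Pcgf1-/- against 25 in wild-type, at least 7.98-fold lower (floor of 3 counts over the group), and Zscan4e had 0 in Pcgf1/2/4-/- against 65, at least 6.27-fold lower. Patl2 was the 1 gene of the list called as lowered in both raised lines, from 123.5 to 31.7 ± 0.214 CPM in Pcgf6-/- (-1.96, SE 0.11, adjusted p = 8.72e-09) and to 14.3 ± 1.16 CPM in the libraries labelled Pcgf3/5/6-/- (-3.10, SE 0.14, adjusted p = 1.09e-09).

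Dux was singled out after its values were seen, because its product acts upstream of the state. It had 11.3 and 12.8 CPM in wild-type, 69.6 and 67.3 CPM in Pcgf6-/- and 29.0 and 23.3 CPM in the libraries labelled Pcgf3/5/6-/-. It had 0.874 and 0.228 CPM in Pcgf1-/-, 2.67 and 0.958 CPM in Pcgf3/5-/-, 1.07 and 2.26 CPM in Pcgf1/2/4-/- and 2.93 and 3.96 CPM in Pcgf2/4-/-. The order of lines thus had the same 2 lines above wild-type and the same 4 below as for the 4 genes. Dux was raised 5.69-fold in Pcgf6-/- (log2 fold change 2.51, SE 0.21, adjusted p = 2.99e-07) and 2.18-fold in the libraries labelled Pcgf3/5/6-/- (1.12, SE 0.24, adjusted p = 0.00112), and it passed the test as lowered in each of the other 4 lines, 17.6-fold in Pcgf1-/- (adjusted p = 5.47e-06).

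**Figure D4:**
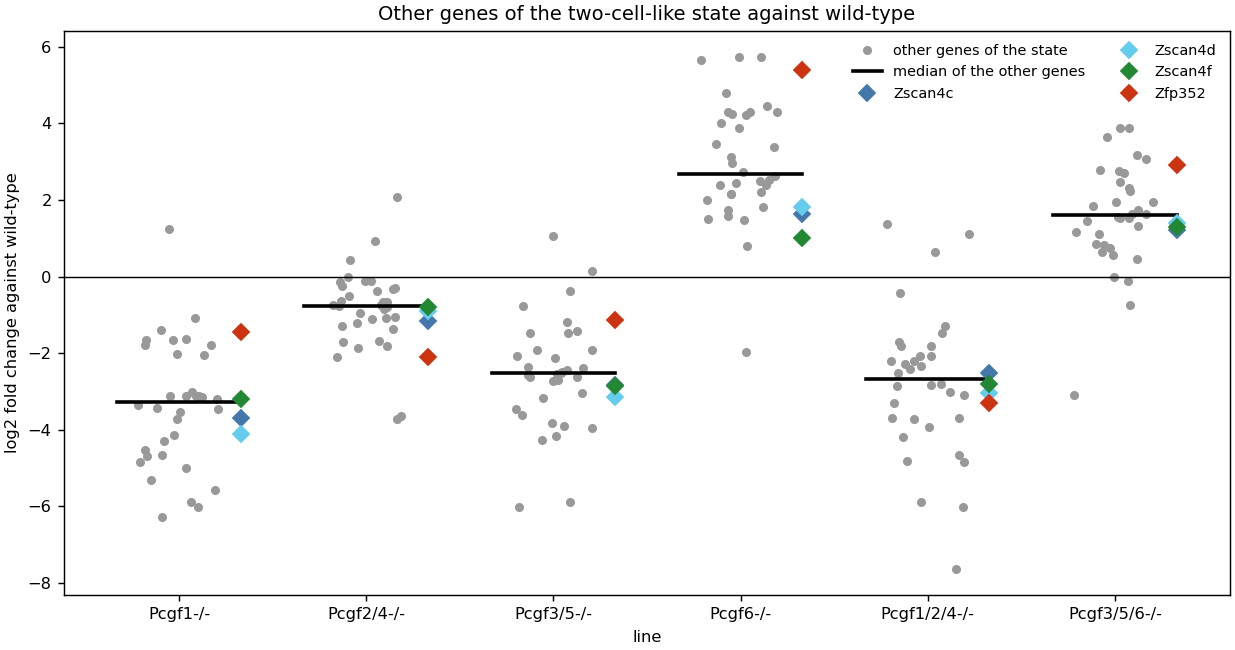
Log2 fold change against wild-type of the 34 tested other genes of the state (grey points, black bar at their median) and of the 4 genes (diamonds) in the 6 lines; for a gene with 0 counts in a line the fitted value depends on the prior count. The medians are 2.67 in Pcgf6-/- and 1.60 in the libraries labelled Pcgf3/5/6-/-, and between -3.27 and -0.76 in the other lines.

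Known regulators of the state were taken as 2 lists. Among 3 activators (Dppa2, Dppa4 and Nelfa), 1 was called in Pcgf6-/-, in Pcgf1-/- and in the libraries labelled Pcgf3/5/6-/- and 0 in the other lines. It was Nelfa, which encodes a subunit of the negative elongation factor, at 200 CPM in wild-type, 260 ± 11.9 in Pcgf6-/- (log2 fold change 0.38, SE 0.13, adjusted p = 0.0295), 378 ± 9.20 in the libraries labelled Pcgf3/5/6-/- (0.92, SE 0.14, adjusted p = 5.89e-05) and 151 ± 13.8 in Pcgf1-/- (-0.40, SE 0.14, adjusted p = 0.0340). The call in Pcgf1-/- was lost with RLE size factors. With loess offsets 2 activators were raised in Pcgf6-/- and 2 in the libraries labelled Pcgf3/5/6-/-, and 1 was lowered in Pcgf1/2/4-/-. Among 15 repressors, 0 were raised and 2 lowered in Pcgf6-/-: Rcor2, a corepressor partner of the demethylase LSD1, from 48.1 to 23.1 ± 1.76 CPM (-1.05, SE 0.24, adjusted p = 0.00246), and Ehmt2, the histone H3K9 methyltransferase G9a, from 79.9 to 46.2 ± 4.10 CPM (-0.79, SE 0.18, adjusted p = 0.00252). Counts were 3 raised and 3 lowered in the libraries labelled Pcgf3/5/6-/-, 0 and 6 in Pcgf1-/-, 0 and 1 in Pcgf2/4-/- and in Pcgf3/5-/-, and 4 and 4 in Pcgf1/2/4-/-. Of all tested genes, 27.8% were raised and 18.6% lowered in Pcgf6-/-, and 28% and 25.3% in the libraries labelled Pcgf3/5/6-/-. In the main fit the repressors' shares there were not above those of all genes. The shares of all genes were 13.9% and 18.4% in Pcgf1-/-, 8.1% and 13.5% in Pcgf2/4-/-, 11.1% and 10.4% in Pcgf3/5-/- and 14.4% and 22.6% in Pcgf1/2/4-/-. The repressors' shares were above these for lowered genes in Pcgf1-/- and in both directions in Pcgf1/2/4-/-. With loess offsets the counts became 2 and 2 in Pcgf6-/- and 6 and 4 in the libraries labelled Pcgf3/5/6-/-. In the latter 4653 of 15464 genes were then raised and 4356 lowered, so the share of raised repressors was above that of all genes. Rcor2 was also lowered in Pcgf1-/- (-1.38), Pcgf2/4-/- (-1.25) and Pcgf1/2/4-/- (-0.84). The part of these regulators in the levels of the state genes was not tested.

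Partners of the Polycomb complexes were a list of 11. Of all tested genes, 27.8% were raised and 18.6% lowered in Pcgf6-/-. In Pcgf6-/-, E2f6 was raised (log2 fold change 0.64, SE 0.22, adjusted p = 0.0258), and Mga, which encodes the MAX partner of the PCGF6 complex, was lowered from 221 to 113 ± 1.30 CPM (-0.97, SE 0.12, adjusted p = 1.43e-05), as were Ring1 (-0.94) and Kdm2b (-0.70). Mga was also lowered in the libraries labelled Pcgf3/5/6-/- (-1.30, SE 0.12, adjusted p = 1.25e-06), where 25.3% of all genes were lowered. It was lowered in Pcgf1/2/4-/- too (-1.13, SE 0.13, adjusted p = 1.96e-05), where 22.6% were. The part of these partners in the levels of the state genes was not tested.

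Markers of other cell types were measured too. Of all tested genes, 27.8% were raised and 18.6% lowered in Pcgf6-/-, and 28% and 25.3% in the libraries labelled Pcgf3/5/6-/-. Of 12 germ cell genes 11 were raised and 1 lowered in Pcgf6-/- and also in the libraries labelled Pcgf3/5/6-/-, and their summed level was 280 to 283 CPM in wild-type, 1614 to 1755 in Pcgf6-/- and 1233 to 1261 in the libraries labelled Pcgf3/5/6-/-. The 7 primitive endoderm markers summed to 3.09 to 3.56 CPM in wild-type, with Gata6, Gata4, Sox17, Dab2 and Foxa2 at 0, and to 48.6 to 55.7 in Pcgf6-/- and 56.8 to 65.1 in the libraries labelled Pcgf3/5/6-/-. There 2 and 3 of 4 tested were raised. The 8 trophoblast markers summed to 229 to 244 CPM in wild-type, 432 to 453 in Pcgf6-/- (5 raised, 2 lowered) and 1352 to 1391 in the libraries labelled Pcgf3/5/6-/- (6 raised, 2 lowered), with Cdx2 and Eomes lowered in both. The 6 fibroblast markers summed to 10.8 to 15.0 CPM in wild-type, with Col3a1 and Postn at 0, 27.2 to 30.8 in Pcgf6-/- and 35.4 to 38.2 in the libraries labelled Pcgf3/5/6-/-. The summed levels of some of these lists were also higher in lines where the genes of the state were low. The shares of all genes raised and lowered were 14.4% and 22.6% in Pcgf1/2/4-/-, 11.1% and 10.4% in Pcgf3/5-/- and 13.9% and 18.4% in Pcgf1-/-. In Pcgf1/2/4-/- the primitive endoderm markers summed to 14.9 to 16.7 CPM (2 of 4 tested raised), the trophoblast markers to 375 to 429 (4 raised, 1 lowered) and the germ cell genes to 446 to 456 (2 raised, 4 lowered). The germ cell genes summed to 370 to 377 CPM in Pcgf3/5-/- (6 raised, 2 lowered) and 361 to 369 in Pcgf1-/- (4 raised, 3 lowered). The part of these cell types in the result was not tested.

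Outside all these lists, the genes whose 7 group means followed the average profile of the 4 genes most closely were Gm21319 (Pearson's r = 0.993), Atp8a2 (0.993), Slc52a2 (0.991), Gm11544 (0.989), Edn3 (0.987) and Acpp (0.985). These are descriptions over 7 means on the log2 CPM scale, among genes whose means spanned at least 1. Gm11544 had 14.3 CPM in wild-type, 94.2 in Pcgf6-/- and 0.889 in Pcgf1-/-. Slc52a2, a riboflavin transporter, ran over a narrower range, from 32.0 CPM in Pcgf1-/- to 88.2 in Pcgf6-/-. The r of the 4 genes themselves with that profile was 0.993 for Zscan4c, 0.987 for Zscan4d, 0.980 for Zscan4f and 0.906 for Zfp352. These 4 genes make up the profile, so their r is high by construction and cannot be set against that of the genes outside the lists.

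The authors' peak lists, 1 for each ChIP-seq sample but the wild-type input, held no peak within 2.5 kb of the annotated start of any of the 4 genes, in 0 of 80 lists. The same was true at 10 kb. The nearest peak lay 110748 bases from the Zfp352 start, in the H3K4me3 list of Pcgf6-/-, and 388703 bases or more from the Zscan4 starts. None of the lists had a peak in the Zscan4 cluster (chromosome 7, 11486098 to 12104460). For comparison, wild-type lists had a peak within 2.5 kb of 63.9% of protein-coding starts for H3K4me3, 14.2% for RING1B, 5.25% for PCGF6 and 2.24% for PCGF1. H3K4me3 usually marks the starts of transcribed genes, but Zscan4 sequence is shared between copies, and the part of reads that match several places was not tested. For Zfp352, 90.9% of exon words occur once in the genome, and words before its start were not counted. Why no peak was called there was not tested.

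The authors' deposited tables give log2 fold changes in the same directions. In the authors' deposited table for Pcgf6-/-, Zfp352 had 5.44, Zscan4d 1.84, Zscan4c 1.68 and Zscan4f 1.04, and of these only Zfp352 was marked as upregulated. The smallest absolute change that the authors' deposited tables mark is 2 on the log2 scale. In the authors' deposited table for Pcgf1-/-, Zscan4c had -3.62, Zscan4d -4.06 and Zscan4f -3.14, and all 3 were marked as downregulated.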

How the data were processed

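E14 ES cells were profiled by RNA-seq of poly-A RNA in 14 libraries and by ChIP-seq in 81 samples. The authors deposited raw read counts per gene symbol, with no normalization. Per the submitters' processing notes, the build was mm9 and the tools included TopHat2 2.1.1, HTSeq 0.7.2 and MACS2 2.1.1, with no roles given. Whether counting used strand is not given in the sources used here. Log2 fold changes, adjusted p-values and mean normalized counts on a signal scale stand in the authors' deposited tables, per the file headers. The last were not used. Their header names the Pcgf6-/- clone differently from the count table. The authors' peak lists give −log10 q-values per peak.

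Counts were tested with edgeR 4.0.16 (R 4.3.3): TMM factors, filterByExpr, glmQLFit and glmQLFTest, two-sided, 7 groups in 1 fit, Benjamini-Hochberg over 15464 genes. An exact permutation test of 2 against 2 cannot pass 0.05. The script was checked on simulated data. Single-library floors of 3 counts were 0.328 to 1.60 CPM, for counting error only. Unmapped columns numbered 0.

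The 6 genes and the lists were chosen with earlier results of these data known. Named from the lists were at most the 3 largest raised and 3 largest lowered called genes per comparison, not all of them reported. The genes of like profile are the 6 of highest r outside the lists. Alternatives were RLE factors, loess offsets, no filter, DESeq2 1.42.0, 2 groups only, a replicate block, the Zscan4 copies summed, each library left out, the wild-type pair summed (added after seeing the data), and, for peaks, other windows and a −log10 q of at least 5.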

Additional observations from a re-analysis of the deposited data

Results flagged for a closer look

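Lines that differ in the same proteins, by their labels, changed by different amounts in different backgrounds. This came from an interaction test in the edgeR fit, chosen after the data were seen. Each line is 1 clone, so genotype and clone cannot be told apart in it. Between Pcgf6-/- and the libraries labelled Pcgf3/5/6-/- the Zscan4 copies changed little, while between wild-type and Pcgf3/5-/- they fell. The log2 difference of these effects was 2.41 for Zscan4c (SE 0.28, adjusted p = 2.41e-05), 2.73 for Zscan4d (SE 0.28, adjusted p = 9.18e-06) and 3.16 for Zscan4f (SE 0.29, adjusted p = 3.56e-06), with 14.6% of all genes called in this direction. For Zfp352 it was -1.35 (SE 0.55, adjusted p = 0.0706), which did not pass, and which passed without Pcgf3/5-/- replicate 1 (-1.88, adjusted p = 0.0421). As Pcgf6 transcript was at wild-type level in the libraries labelled Pcgf3/5/6-/-, the label of that line was not checked by it.

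In the same way, the change from Pcgf1-/- to Pcgf1/2/4-/- was set against that from wild-type to Pcgf2/4-/-. It was more positive by 2.30 for Zscan4c (SE 0.48, adjusted p = 0.00235) and 1.97 for Zscan4d (SE 0.52, adjusted p = 0.0103), with 14.1% of all genes called in this direction. The first change rests on few counts, 33 and 35 for these genes in Pcgf1-/- and 22 for each in Pcgf1/2/4-/-. Zscan4f (1.16, adjusted p = 0.103) and Zfp352 (0.23, adjusted p = 0.991) did not pass. The Zscan4c call was lost without Pcgf1/2/4-/- replicate 2 (2.08, adjusted p = 0.0555) and the Zscan4d call without Pcgf1/2/4-/- replicate 1 (1.79, adjusted p = 0.104) or 2 (2.02, adjusted p = 0.0732), while Zscan4f passed without Pcgf1-/- replicate 1 (2.12, adjusted p = 0.0206). Without that library the differences were 3.35 for Zscan4c and 3.82 for Zscan4d.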

How the results depend on the processing

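Every direction against wild-type kept its sign for the 4 genes under each alternative run. With the 3 Zscan4 copies summed there are 2 features by construction, and the counts became 2 in Pcgf1-/-, Pcgf2/4-/-, Pcgf6-/-, Pcgf1/2/4-/- and Pcgf3/5/6-/- against wild-type and for Pcgf3/5/6-/- against Pcgf3/5-/-, and 1 in Pcgf3/5-/- and for Pcgf1/2/4-/- against Pcgf2/4-/- and Pcgf3/5/6-/- against Pcgf6-/-. With only the 2 groups fitted, 2 genes were lowered in Pcgf2/4-/- and 2 raised in Pcgf1/2/4-/- against Pcgf1-/- (2 tested), and 1 raised in Pcgf3/5/6-/- against Pcgf6-/-, also 1 with loess offsets. Raised genes in Pcgf1/2/4-/- against Pcgf1-/- numbered 0 with no filter and 2 with DESeq2. Lowered genes in Pcgf3/5/6-/- against Pcgf6-/- numbered 1 with RLE factors and 1 with the replicate block. Calls lost with a library left out are given above. Over all alternatives, the log2 fold change in Pcgf2/4-/- ran from -0.81 to -0.67 for Zscan4f and from -2.69 to -1.05 for Zfp352. For Zscan4c in Pcgf1/2/4-/- against Pcgf1-/- it ran from 0.71 to 2.21. In Pcgf3/5/6-/- against Pcgf6-/- it ran from -0.55 to -0.30 for Zscan4c, -0.52 to -0.32 for Zscan4d and 0.20 to 0.39 for Zscan4f.

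Zscan4f in Pcgf1/2/4-/- against Pcgf1-/- ran from -0.054 to 1.34 over the libraries left out, and the Zfp352 interaction for Pcgf2/4 loss from -3.43 to 1.26; the cause was not tested. The other genes of the state in Pcgf3/5/6-/- against wild-type had 20 raised and 3 lowered with loess offsets. Same-numbered libraries of different groups showed no common direction of deviation. Over 21 pairs of groups the correlation of deviations ran from -0.462 to 0.375, with a median of 0.0131 and 3 above 0.1. This cannot show that no groups were paired, so the replicate block was run as an alternative only. It changed no other count of the 4 genes by over 1.5 times. Depth limits Zfp352 in the 4 lines where it was low. It also limits the Zscan4 copies in Pcgf1-/- replicate 2 (3 to 5 counts) and in Pcgf1/2/4-/- (6 to 13 counts).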

Other observations

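Zfp750, another gene of the list, was the 1 member raised in Pcgf1-/- (wild-type had 1.48 CPM and the knockout 3.58 ± 0.114, SD, n = 2, a log2 fold change of 1.24, adjusted p = 0.0366 in edgeR). It was lowered in Pcgf2/4-/-, where 1 count was left against 21 in wild-type (adjusted p = 0.0179).

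Among repressors, Chaf1a, the large subunit of the chromatin assembly factor, was raised in the libraries labelled Pcgf3/5/6-/- (from 65.7 to 104 ± 0.327 CPM, a log2 fold change of 0.66, adjusted p = 0.00641 in edgeR) and in Pcgf1/2/4-/- (108 ± 1.66 CPM, 0.71, adjusted p = 0.00886). Its part in the levels of the state genes was not tested.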
